A study of Mus musculus with 8 samples.

Results

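The interleukin-6 (IL-6) family receptors and the STAT3 axis were examined as a group of 10 genes in mouse brain RNA-seq. The list was given by name and each gene was matched by its symbol: the receptor chains Il6ra, Il6st, Osmr, Lifr and Cntfr, the kinase gene Jak2, the transcription factor gene Stat3, the inhibitor gene Socs3, and the C/EBP transcription factor genes Cebpb and Cebpd. All 10 were found among the 54532 genes of the table of the PTS + RS and RS libraries and among the 28229 genes of the table of the HDAC3 inhibitor and NaCl libraries, and all 10 passed the filter on low counts in both. The choice was made with earlier results of these data known.

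IL-6 family cytokines bind receptor complexes that share the signalling chain gp130, encoded by Il6st. The complex activates JAK kinases, which phosphorylate STAT3, and STAT3 then enters the nucleus and switches on genes that include Socs3, whose product in turn blocks the receptor complex. In the injured brain this pathway is known for its part in reactive astrocytes, and C/EBPβ and C/EBPδ act beside STAT3 in the acute phase response.

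The 8 libraries came from male C57BL/6 mice on day 21, with 2 libraries in each of 4 groups. The RS mice were held daily in a ventilated tube (restraint stress). The PTS + RS mice had the same restraint after a photothrombotic stroke (PTS), in which light on the skull after injection of Rose Bengal clots the vessels of the right cortex. These 4 libraries are all labelled cortex, and the submitters' design text calls them damaged cortex tissue, although the RS mice had no stroke. The 4 other libraries are described as all from PTS + RS mice. Those of the HDAC3 inhibitor group were given RGFP109, an inhibitor of histone deacetylases including HDAC3, at 60 mg/kg under the skin each day for 2 weeks, and those of the control group are labelled NaCl. The labels and the methods give this length of treatment, while another passage of the study gives a longer course that ends after day 21. In both of these groups replicate 1 is labelled cortex and replicate 2 amygdala. RGFP109 also acts on HDAC1, its carrier was DMSO with a cyclodextrin, and neither a stroke-free untreated group nor a group with stroke alone was analysed here. The age of the sequenced mice, and whether a library holds 1 mouse or a pool, are not given in the sources used here (the study states an age only in describing a behavioural test), so p-values measure the spread between these libraries.

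Between 15902013 and 21712033 reads per library were counted on genes, and mitochondrial genes took 3.59% to 4.55% of them. Replicates differed more in the second table, with a common biological coefficient of variation of 32.1% against 11.4% in the PTS + RS and RS libraries. The 2 libraries of a group carry different tissue labels in the second table. Its value therefore holds that difference as well as replicate spread. Markers set several libraries apart. NaCl replicate 1, labelled cortex, had 1724 CPM (counts per 1000000 of TMM-scaled library size) summed over 10 olfactory bulb markers against 36.9 to 50.8 CPM in the 3 other libraries of its table. The amygdala-labelled libraries had 1370 and 1508 CPM summed over 10 striatum markers against 213 and 259 CPM in the cortex-labelled ones, while 10 amygdala markers summed to 279 and 286 CPM there against 298 and 324 CPM. The same amygdala-labelled libraries had 745 and 831 CPM over 10 cerebral cortex markers against 394 and 549 CPM, so the markers go against the tissue labels of that table. Choroid plexus markers reached 1560 CPM in HDAC3 inhibitor replicate 1 against 17.6 to 47.8 CPM beside it, and were 1680 and 53.0 CPM in the PTS + RS libraries against 1893 and 3924 CPM in the RS libraries. Cortex markers were even across the PTS + RS and RS libraries, at 478 to 510 CPM.

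The first comparison, PTS + RS against RS, addressed what a stroke added to restraint stress in the cortex. Of the 10 genes, the receptor genes Osmr (3.67-fold) and Il6ra (1.89-fold) rose and none fell (edgeR's quasi-likelihood test, adjusted p below the threshold of 0.05). Across all 17581 genes tested, 3.55% passed the test in either direction and 2.96% were higher in PTS + RS. Osmr also had a log2 fold change of at least 1, which 2.12% of all tested genes reached as higher calls. The 8 genes Osmr, Il6ra, Il6st, Cntfr, Jak2, Stat3, Socs3 and Cebpb had PTS + RS libraries that did not overlap the RS libraries, which was also the case for 50.2% of all tested genes. The median log2 fold change was 0.29 over the 10 genes and -0.0015 over all tested genes, with 8 of the 10 above 0.

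**Figure D1:**
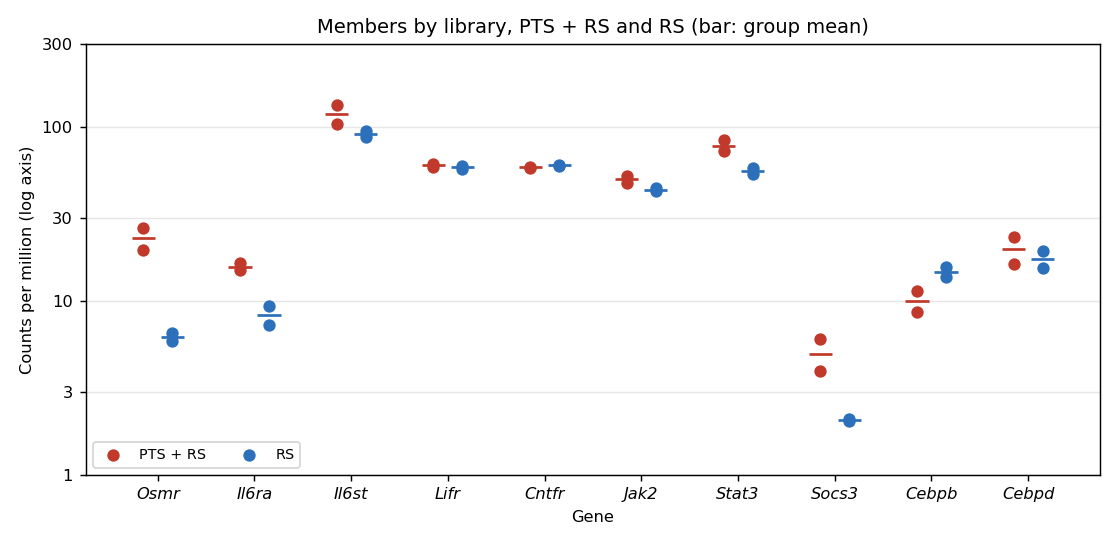
CPM on a log axis (vertical) for each of the 10 genes (horizontal) in each of the 2 PTS + RS and 2 RS libraries, with a bar at each group's mean. The 2 PTS + RS points lie above both RS points for Osmr, Il6ra, Il6st, Jak2, Stat3 and Socs3, below them for Cntfr and Cebpb, and among them for Lifr and Cebpd; CPM is not divided by gene length, so heights are compared within a gene.

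Among the receptors, Osmr differed most. It encodes the oncostatin M receptor chain that pairs with gp130 and is known from reactive astrocytes, and it lies at chr15:6813577-6874969 (GRCm38, minus strand). Osmr was at 26.2 and 19.6 CPM in the PTS + RS libraries and at 6.57 and 5.87 CPM in the RS libraries. Every PTS + RS library was thus well above every RS library. The difference was 3.67-fold, with a log2 fold change of 1.88 (SE 0.19, n = 2 per group) and an adjusted p of 0.00338 by edgeR's quasi-likelihood test. Without any 1 of the 4 libraries the log2 fold change of Osmr lay between 1.65 and 2.07, and the call held in each case.

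Il6ra encodes the chain that binds IL-6 itself and in the brain is known mainly from microglia. The gene lies at chr3:89864059-89913196 (minus strand). Il6ra was at 16.5 and 15.0 CPM in PTS + RS and at 7.28 and 9.40 CPM in RS. The groups were apart, and the RS libraries differed more from each other than the PTS + RS libraries did. Il6ra rose 1.89-fold, with a log2 fold change of 0.92 (SE 0.178) and an edgeR quasi-likelihood adjusted p of 0.0414. Without RS replicate 1 its log2 fold change was 0.74 and the call was lost, at an edgeR adjusted p of 0.21.

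Il6st, the gene of the shared chain gp130, was at 134 and 104 CPM in PTS + RS and at 94.6 and 87.8 CPM in RS. PTS + RS replicate 2 stood closer to the RS libraries than to its own replicate. The log2 fold change was 0.38 (SE 0.126), and the edgeR quasi-likelihood adjusted p of 0.175 did not pass. Lifr, which encodes the leukaemia inhibitory factor receptor chain, was at 61.1 and 59.1 CPM against 57.6 and 59.6 CPM, and these ranges overlapped (log2 fold change 0.04, SE 0.0803). Cntfr encodes the ciliary neurotrophic factor receptor, known from neurons. It was at 58.0 and 59.0 CPM against 60.6 and 59.5 CPM, with a log2 fold change of -0.04 (SE 0.0788).

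Downstream of the receptors, Jak2 encodes a kinase attached to gp130. It was at 47.6 and 52.2 CPM in PTS + RS and at 44.3 and 43.0 CPM in RS, a log2 fold change of 0.19 (SE 0.0926) with an edgeR quasi-likelihood adjusted p of 0.337. Stat3 lies at chr11:100885098-100939540 (minus strand) and encodes the transcription factor that the kinases activate. Stat3 was at 83.6 and 72.5 CPM in PTS + RS and at 53.4 and 58.4 CPM in RS. The groups were apart by more than the gap within either, with a log2 fold change of 0.48 (SE 0.10). Its edgeR quasi-likelihood adjusted p of 0.0508 did not pass. DESeq2 put the adjusted p at 0.0222 and limma-voom at 0.0603, so the call depended on the method. Without any 1 of the 4 libraries the log2 fold change of Stat3 lay between 0.38 and 0.58. Stat3 mRNA says nothing of the phosphorylation that activates the protein.

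Socs3, at chr11:117966079-117970047 (minus strand), encodes the feedback inhibitor that STAT3 induces. Socs3 was at 6.01 and 3.95 CPM in PTS + RS and at 2.04 and 2.08 CPM in RS. Both PTS + RS libraries were above both RS libraries, which were nearly equal, and the PTS + RS libraries spread widely. These values rest on 103 and 66 counts against 37 and 33. The log2 fold change was 1.27 (SE 0.299) and the edgeR quasi-likelihood adjusted p was 0.0723, so Socs3 did not pass.

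Neither C/EBP factor gene passed. Cebpb, which encodes C/EBPβ, was at 8.58 and 11.4 CPM in PTS + RS and at 13.8 and 15.6 CPM in RS, so that both PTS + RS libraries were lower. Its log2 fold change was -0.56 (SE 0.185), with an edgeR quasi-likelihood adjusted p of 0.176. Cebpd, which encodes C/EBPδ, was at 16.2 and 23.3 CPM against 15.5 and 19.4 CPM. These ranges overlapped, with a log2 fold change of 0.18 (SE 0.203) that turned to -0.10 when PTS + RS replicate 2 was left out. Cebpb overlaps Tmem189 and Cebpd overlaps Spidr on the opposite strand. Stat3 likewise overlaps Stat5a, and the strand setting of the counting is not given, so reads of these pairs may not have been told apart.

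The sequence upstream of Socs3 and Il6ra is shown because Socs3 is the feedback target of STAT3 and Il6ra is a receptor that rose. Promoter windows of 250 bases before a start were taken from RefSeq (GRCm38.p6), which held 15 windows for 9 of the 10 genes and none for Cebpd. They were searched on both strands for the STAT motif TTCNNNGAA, its more specific form TTCCNGGAA (all of whose matches are also matches to TTCNNNGAA), and the C/EBP motif TTGCNNAA. The window of Socs3 is chr11:117969367-117969616 and that of Il6ra is chr3:89913197-89913446, both on the minus strand and written 5′ to 3′, with a motif match in capitals.
Socs3: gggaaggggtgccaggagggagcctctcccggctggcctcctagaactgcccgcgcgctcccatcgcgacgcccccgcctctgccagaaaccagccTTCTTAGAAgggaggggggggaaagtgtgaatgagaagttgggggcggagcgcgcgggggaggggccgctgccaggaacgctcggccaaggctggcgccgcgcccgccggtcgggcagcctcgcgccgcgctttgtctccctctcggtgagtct
Il6ra: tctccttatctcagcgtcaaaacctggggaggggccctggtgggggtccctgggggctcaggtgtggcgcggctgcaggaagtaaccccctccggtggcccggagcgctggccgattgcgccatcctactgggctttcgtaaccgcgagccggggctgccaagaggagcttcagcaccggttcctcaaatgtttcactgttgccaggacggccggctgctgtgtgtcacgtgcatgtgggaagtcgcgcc
The Socs3 window held 1 match to TTCNNNGAA, starting 154 bases before the RefSeq start. The nearer end of that window lies 181 bases upstream of the coding transcript start in GENCODE M21, and the window overlaps an exon of another Socs3 transcript. Il6ra had no match to either motif, and its window ends at the first base before the annotated gene. No window of the 8 other genes with one held a STAT match, and none of the 15 windows held a C/EBP match. The windows of Osmr, Lifr and Cntfr lie inside the annotated genes, downstream of the outermost coding transcript start. Their lack of a match does not cover the sequence upstream of that start. Among 32851 RefSeq windows of this length, 7.02% held TTCNNNGAA, 0.913% held TTCCNGGAA and 9.56% held TTGCNNAA. A match describes these letters and is not evidence of binding.

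Levels of different genes were compared as FPKM, the deposited values scaled by gene length and by library. Cntfr was the most abundant of the 10 genes in all 4 groups, at 21.3 to 21.7 FPKM in RS and 20.6 to 21.1 FPKM in PTS + RS. In the RS libraries, Cebpb (9.12 to 10.4 FPKM), Jak2 (8.51 to 8.76 FPKM) and Il6st (7.88 to 8.48 FPKM) followed. Below them came Stat3 (5.57 to 6.10 FPKM), Lifr (5.32 to 5.51 FPKM) and Cebpd (4.10 to 5.17 FPKM), and the RS ranges of neighbours in this order did not overlap. Il6ra (0.838 to 1.08 FPKM), Socs3 (0.702 to 0.717 FPKM) and Osmr (0.483 to 0.539 FPKM) were the lowest in RS. In PTS + RS these 3 remained the lowest but could not be ordered, since Osmr (1.61 to 2.14 FPKM), Il6ra (1.73 to 1.89 FPKM) and Socs3 (1.36 to 2.06 FPKM) overlapped. Cebpb followed Cntfr directly in RS but stood below Il6st, Jak2 and Stat3 in PTS + RS, at 5.65 to 7.52 FPKM, and there Il6st and Jak2 overlapped each other.

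The rest of the pathway was examined in 7 lists of 67 other genes. Of the 11 ligand genes, 6 had too few counts to be tested, namely Il6, Il11, Osm, Cntf, Ctf2 and Il27. Il6 had 0 and 2 counts in PTS + RS and 0 and 1 in RS, and Osm, which encodes the ligand of the receptor that rose, had 9 and 7 counts against 6 and 3. At this depth no difference in these ligands was detectable. None of the 5 tested ligand genes passed. The highest log2 fold changes, singled out after their values were seen, were those of Ebi3 (1.37, SE 0.603), Lif (1.21, SE 0.408) and Clcf1 (1.19, SE 0.279), with edgeR quasi-likelihood adjusted p of 0.295, 0.186 and 0.0713.

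Of the 3 other receptor genes, Il31ra was not tested and the other two did not pass, nor did any of the 3 other JAK genes. Stat2, which works in interferon signalling, was the 1 that passed among the 5 tested of 6 other STAT genes (Stat4 had too few counts), at 55.9 and 46.1 CPM against 34.3 and 34.3 CPM. Its log2 fold change was 0.57 (SE 0.116), with an edgeR quasi-likelihood adjusted p of 0.0473. The call of Stat2 was lost by limma-voom and without RS replicate 1 or RS replicate 2.

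Of 15 other inhibitor genes, all tested, 1 rose. This was Ptpn6, which encodes the phosphatase SHP-1 of blood-derived and microglial cells, at 19.7 and 19.1 CPM against 4.08 and 5.05 CPM. Its log2 fold change was 2.09 (SE 0.172), with an edgeR quasi-likelihood adjusted p of 0.00151, while the median of this list was -0.06. Among the other C/EBP genes, Cebpe was not tested and 1 of the 4 tested rose. Cebpa, a factor of the myeloid lineage, was at 32.0 and 37.1 CPM against 15.8 and 17.4 CPM, with a log2 fold change of 1.06 (SE 0.127).

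The longest of the 7 lists was that of genes known as targets of STAT3 or C/EBP factors, chosen with earlier results of these data known. Of the 24 listed, 23 were tested (all but Saa3), 10 rose and 1 fell, and their median log2 fold change was 1.61. Across all tested genes, 2.96% were higher in PTS + RS and 3.55% passed in either direction. Whether STAT3 or C/EBP factors drove these genes was not tested. Gfap and Vim, the intermediate filament genes of reactive astrocytes, rose by 2.27 (SE 0.171) and 2.10 (SE 0.186) on the log2 scale. Gfap was at 2058 and 1452 CPM in PTS + RS and at 372 and 354 CPM in RS, with no overlap. Serpina3n, a protease inhibitor gene of reactive astrocytes, rose by 2.18 (SE 0.14) and A2m, a broad protease inhibitor gene, by 2.01 (SE 0.198). C3, the central complement component gene, was at 21.6 and 15.8 CPM against 1.43 and 1.77 CPM, a log2 fold change of 3.55 (SE 0.245).

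Lcn2, an iron-binding acute phase gene, had 104 and 136 counts in PTS + RS and 2 and 3 in RS. The ratio of its summed counts, scaled for library size, was 48.2, with an exact 95% interval from 20.4 to 149.7 that covers counting error only. The other genes that rose were Ch25h, which makes an oxysterol (log2 fold change 3.11), the lipopolysaccharide co-receptor gene Cd14 (1.99), the interleukin-4 receptor gene Il4ra (1.75) and the adhesion molecule gene Icam1 (1.72). Vegfa, the vascular growth factor gene, fell by 0.41 (SE 0.0813) with an edgeR quasi-likelihood adjusted p of 0.0453. Its call was lost by limma-voom and without RS replicate 1 or RS replicate 2.

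**Figure D2:**
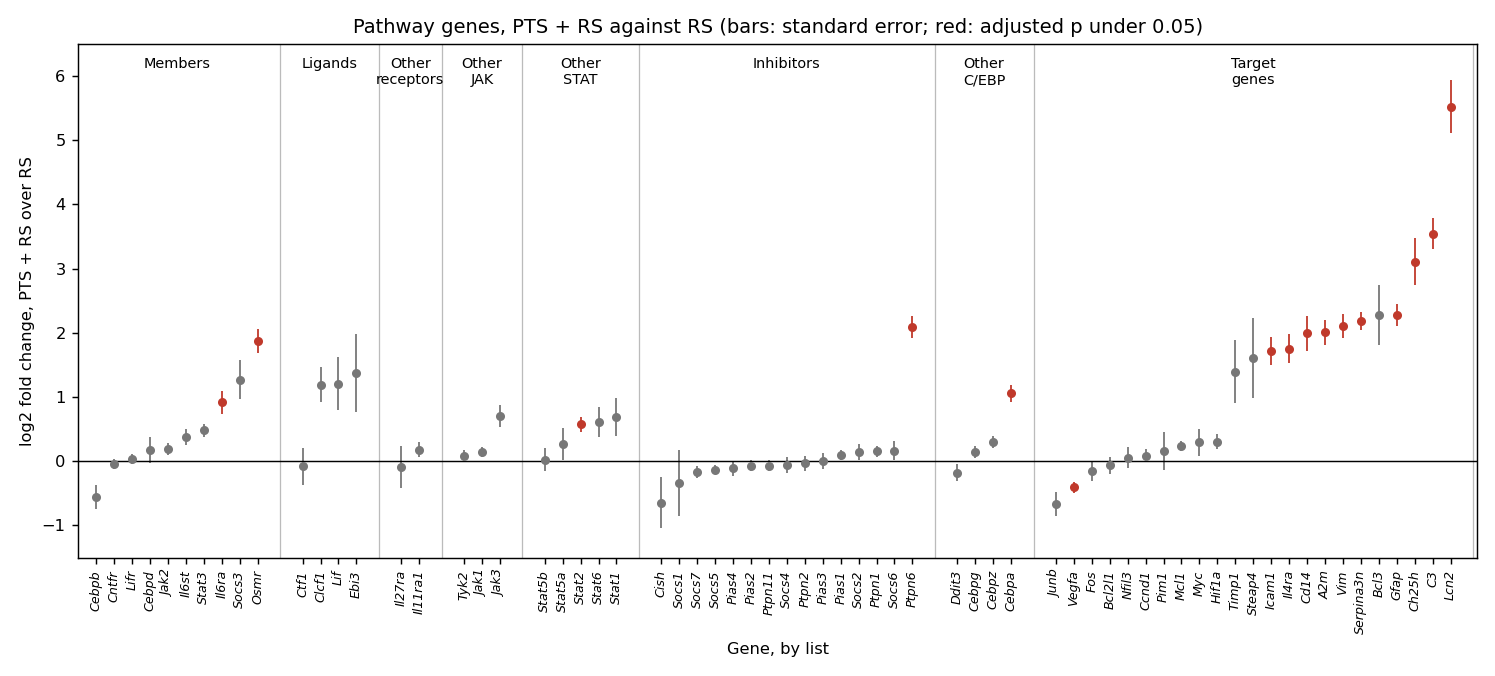
log2 fold change of PTS + RS over RS (vertical) for the 10 genes and for the tested genes of the 7 pathway lists, 1 ligand gene left out (horizontal, ordered within each list), with standard errors from edgeR's quasi-likelihood fit. Red points have an adjusted p under 0.05; they comprise Osmr, Il6ra, Stat2, Ptpn6, Cebpa and 11 of the 23 tested target genes, of which Vegfa lies below 0.

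Cell type markers moved in the same comparison. All 15 microglia markers rose, and their summed level was 1784 and 1532 CPM in PTS + RS against 415 and 371 CPM in RS. Of 12 astrocyte markers 3 rose, and their sum was 6409 and 5789 CPM against 4708 and 4745 CPM. Macrophage markers summed to 36.3 and 16.8 CPM against 12 and 10.2 CPM, with 1 of the 5 tested higher. Of 12 markers each, 1 rose for oligodendrocytes and 0 for neurons and endothelial cells, while 2.96% of all tested genes were higher. Oligodendrocyte markers summed to 7042 and 7851 CPM against 6324 and 5749 CPM. Endothelial markers summed to 423 and 393 CPM against 368 and 361 CPM, so sums rose beyond the astrocyte list. Neuron markers summed to 10022 and 11734 CPM against 11432 and 11337 CPM. Neutrophil markers were at 0.315 to 0.938 CPM in sum, and the defining genes Ly6g, Elane and Retnlg had 0 counts in all 4 libraries. The part of these shifts in the values of Osmr, Il6ra, Ptpn6, Cebpa and the target genes was not tested, and in bulk tissue more cells of a type and more RNA per cell cannot be told apart.

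The second comparison, HDAC3 inhibitor against NaCl, addressed what the inhibitor changed in PTS + RS mice. None of the 10 genes passed, and 0% of the 17565 genes tested passed by edgeR's quasi-likelihood test, by DESeq2 or by limma-voom, while 206 had an unadjusted p under 0.05 by edgeR. These fits did not model the tissue labels, which differ within each group. With the replicate number as a block, none of the 10 genes passed either. Of the 10 genes, Stat3 and Lifr had an unadjusted p under 0.05. Stat3, Lifr, Cntfr and Jak2 did not overlap between the groups, as was the case for 26.6% of all tested genes. The median log2 fold change was -0.22 over the 10 genes and -0.02 over all tested genes, with 3 of the 10 above 0. Adjusted p-values by edgeR were 0.9997 for each of the 10.

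**Figure D3:**
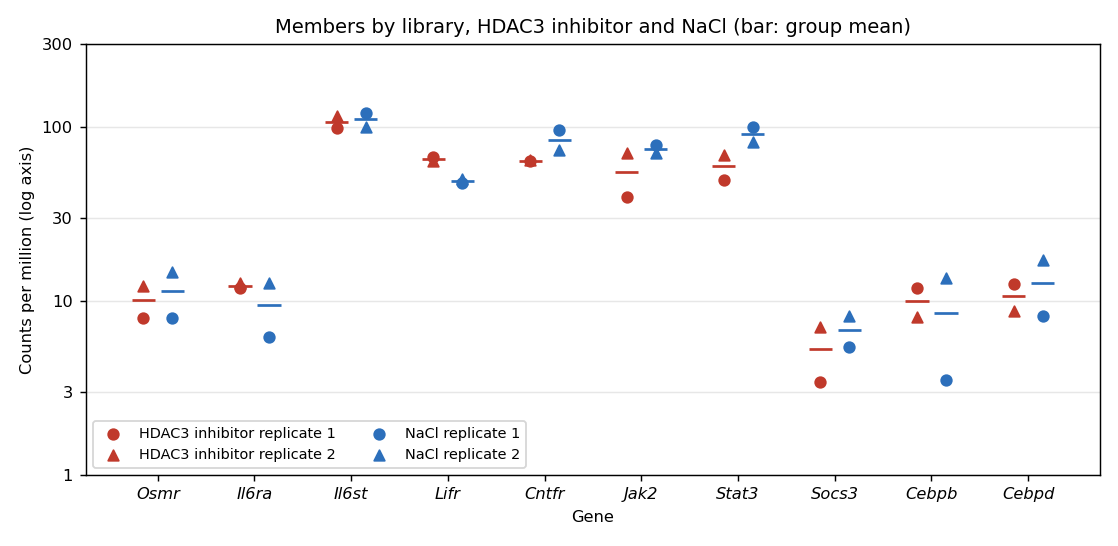
CPM on a log axis (vertical) for each of the 10 genes (horizontal) in the HDAC3 inhibitor and NaCl libraries, with circles for replicate 1 (labelled cortex), triangles for replicate 2 (labelled amygdala) and a bar at each group's mean. Stat3, Cntfr and Jak2 are lower and Lifr higher in both HDAC3 inhibitor libraries than in both NaCl libraries, narrowly for Jak2; heights are compared within a gene.

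Stat3 was at 49.7 and 69.3 CPM with the HDAC3 inhibitor and at 99.7 and 82.0 CPM with NaCl, replicates 1 and 2 in that order. Both HDAC3 inhibitor libraries were below both NaCl libraries, with a log2 fold change of -0.61 (SE 0.234) and an unadjusted p of 0.0493 by edgeR's quasi-likelihood test. The highest Stat3 value was in NaCl replicate 1, the library with the olfactory bulb markers. Without it the log2 fold change of Stat3 was -0.47, and neither value passed the test.

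Lifr was at 66.9 and 64.0 CPM against 47.5 and 50.3 CPM, the most even of the 4 separations, with a log2 fold change of 0.42 (SE 0.156) and an unadjusted p of 0.0444 by edgeR's quasi-likelihood test. Leaving out any 1 library gave between 0.37 and 0.47. Cntfr was at 63.7 and 64.5 CPM against 95.7 and 73.6 CPM (log2 fold change -0.40, SE 0.194). Jak2 was at 39.6 and 70.4 CPM against 78.4 and 70.6 CPM (log2 fold change -0.44, SE 0.309), and only HDAC3 inhibitor replicate 1 was far from the rest.

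The 6 other genes overlapped between the groups. Osmr was at 7.99 and 12.2 CPM with the inhibitor and at 8.02 and 14.7 CPM with NaCl. Both replicate 2 libraries, labelled amygdala, were above both replicate 1 libraries. Each of these Osmr values was below the 26.2 and 19.6 CPM of the PTS + RS libraries in the first table. Each was above the 6.57 and 5.87 CPM of its RS libraries. Il6ra was at 11.8 and 12.7 CPM against 6.20 and 12.6 CPM, where NaCl replicate 1 alone was low. Socs3 was at 3.42 and 7.10 CPM against 5.40 and 8.16 CPM, again higher in replicate 2 of each group. Il6st was at 98.3 and 116 CPM against 121 and 100 CPM. Cebpb, at 11.9 and 8.09 CPM against 3.53 and 13.5 CPM, and Cebpd, at 12.5 and 8.79 CPM against 8.13 and 17.3 CPM, had both NaCl libraries outside the range of the inhibitor libraries, 1 on each side. The log2 fold changes of these 6 genes lay between -0.36 and 0.38, and each turned its sign when 1 of the 4 libraries was left out.

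Ratios within each pair of equally labelled libraries compare 1 library with 1 and have no replicate check, and their 95% intervals cover counting error only. For Stat3 the log2 ratio of HDAC3 inhibitor over NaCl was -1.01 (-1.13 to -0.88) in the cortex-labelled pair and -0.24 (-0.35 to -0.14) in the amygdala-labelled pair. Lifr was at 0.49 (0.36 to 0.63) and 0.35 (0.22 to 0.47), and Cntfr at -0.59 (-0.70 to -0.47) and -0.19 (-0.30 to -0.08). These 3 genes had the same sign in both pairs with intervals that left out 0. Jak2 was at -0.98 (-1.12 to -0.85) in the cortex-labelled pair and at -0.0029 (-0.11 to 0.11) in the amygdala-labelled pair. Socs3 was at -0.66 and -0.20, Osmr at -0.0052 and -0.28, and Il6ra at 0.93 and 0.01. The 3 remaining genes, Il6st, Cebpb and Cebpd, had opposite signs in the pairs. How many of all tested genes had the same sign with intervals that left out 0, or opposite signs, was not counted. Neither pattern is therefore read as particular to these genes.

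**Figure D4:**
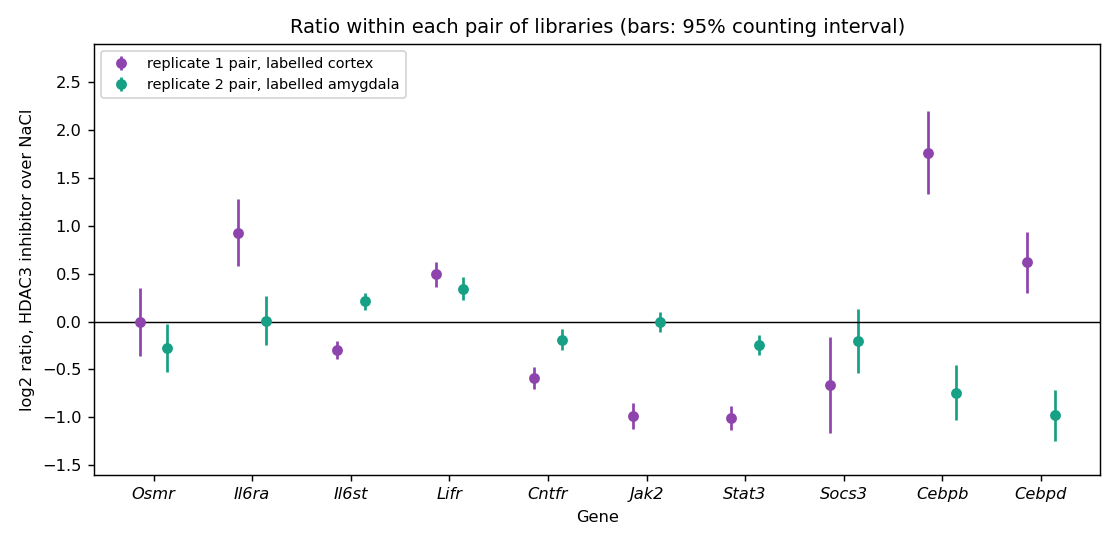
log2 ratio of HDAC3 inhibitor over NaCl (vertical) for each of the 10 genes (horizontal) in the replicate 1 pair, labelled cortex, and the replicate 2 pair, labelled amygdala, with 95% intervals that cover counting error only. Stat3 and Cntfr lie below 0 and Lifr above 0 in both pairs, while Il6st, Cebpb and Cebpd lie on opposite sides of 0.

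In the pathway lists no gene passed in this comparison. The median log2 fold change of the 24 target genes, all tested here, was -0.24, with 7 above 0, and that of the 15 inhibitor genes was -0.03. Some target genes, singled out after their values were seen, differed more between the replicate numbers than between the treatments. Lcn2 was at 12.8 and 26.2 CPM in the amygdala-labelled libraries of the inhibitor and NaCl groups and at 1.59 and 0.228 CPM in the cortex-labelled ones, and C3 was at 34.2 and 60.8 CPM against 6.41 and 0.512 CPM. Microglia markers summed to 709 and 800 CPM in the amygdala-labelled libraries and to 488 and 572 CPM in the cortex-labelled ones, and macrophage markers to 34 and 49 CPM against 22.3 and 21.7 CPM. The part of these marker differences, and of the olfactory bulb and striatum markers, in the values of the 10 genes was not tested.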

How the data were processed

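Per the study's methods and the submitters' processing notes, reads were aligned to GRCm38 with STAR 2.4.0 and the authors counted reads per gene with HTSeq 0.6.1. The counts were deposited without normalization, and the strand setting is not given in the sources used here. The study's methods and the labels name different library kits. The authors deposited FPKM values as well, and these equal the counts divided by gene length and by a constant per library. The deposited normalized signal (group means by the authors), log2 fold changes and p-values of the authors' own comparisons were not used, nor were 8 other columns of per-library values. The second table has no identifiers and was matched to the first by position (28229 of 28229 genes).

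The 10 genes and all lists were chosen with earlier results of these data known. Each comparison used the 4 libraries of its own table in edgeR 4.0.16 (R 4.3.3; TMM, filterByExpr, quasi-likelihood F test, Benjamini-Hochberg adjustment over all tested genes). CPM values are counts per 1000000 of TMM-scaled library size, and SE is the size of the log2 fold change divided by the square root of F. A gene passed at an adjusted p under 0.05. The text names the 10 genes, list genes that passed, list genes too low to test and those said to be singled out. Markers are given as sums and counts. Alternatives were DESeq2 1.42.0 and its size factors, limma-voom (limma 3.58.1), no filter, a replicate block and leaving out each library. The fits were tested on simulated data whose spread was close to that of the PTS + RS and RS libraries. Their power at the wider spread of the HDAC3 inhibitor and NaCl libraries was not tested. Depth was 15902013 to 21712033 counts per library. Replicates differed beyond counting noise, with a mean chi-square per gene from 4.96 in RS to 84.7 in NaCl (1 is expected from counting). In the HDAC3 inhibitor and NaCl groups this includes the difference between the tissue labels. Spread rather than depth thus limits the precision for genes with many counts. For low-count genes depth limits it as well. Samples were grouped by their labels. In the HDAC3 inhibitor and NaCl groups the labels give number 1 to cortex and number 2 to amygdala, so the block is a tissue block there (correlation of same-numbered deviations 0.299). The values of 1 ligand gene are not reported here.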

Additional observations from a re-analysis of the deposited data

Results flagged for a closer look

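For 3 of the 10 genes the HDAC3 inhibitor and NaCl libraries differed one way in the cortex-labelled pair and the other way in the amygdala-labelled pair. The log2 ratio of inhibitor over NaCl was 1.76 and -0.74 for Cebpb, 0.62 and -0.98 for Cebpd, and -0.30 and 0.21 for Il6st, in the cortex-labelled and the amygdala-labelled pair in that order. Each pair holds 1 library per group, so the difference between the pairs was not tested. The share of all tested genes with such opposite signs was not counted. In the cortex-labelled pair the NaCl library is the one with 1724 CPM of olfactory bulb markers, and the part of this in the ratios was not tested.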

How the results depend on the processing

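For PTS + RS against RS, Osmr passed under all 9 alternatives and Il6ra under all but 1, the fit without RS replicate 1. The genes higher among the 10 numbered 2, against 5 with no filter and 1 to 5 when 1 library was left out (5 without PTS + RS replicate 2, which added Stat3, Socs3 and Il6st). Those lower numbered 0, against 1 (Cebpb) with no filter and 0 to 1 when 1 library was left out. Stat3 also passed by DESeq2 but not by limma-voom (adjusted p 0.0603). Over all genes, 521 were higher, against 1119 with no filter and 339 (without RS replicate 2) to 1413 (without PTS + RS replicate 2), and 103 were lower, against 187 by DESeq2, 716 with no filter, and 32 to 1278 without those same libraries. With 1 library left out, its group held 1 library and was assumed to vary like the other group. Calls from those fits rest on that assumption. The cause of these shifts was not tested.

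With the replicate block, 4 of the 10 genes were higher (Stat3, Socs3, Osmr and Il6ra), at edgeR adjusted p of 0.0344 for Stat3 and 0.0495 for Socs3, and 228 of all genes were lower. Same-numbered PTS + RS and RS libraries share only a number (correlation of deviations 0.0352). The tissue block changed no call for HDAC3 inhibitor against NaCl.

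With 1 library left out, the log2 fold change of Cebpd in PTS + RS against RS ranged from -0.10 to 0.42. For HDAC3 inhibitor against NaCl the ranges were -0.98 to 0.069 for Socs3, -0.55 to 0.34 for Osmr, -0.17 to 0.093 for Il6st, -0.048 to 0.99 for Il6ra, -0.71 to 0.39 for Cebpd and -0.45 to 1.51 for Cebpb. In that comparison 0 to 15 of all genes were higher and 0 to 78 lower, the calls coming without NaCl replicate 2, where NaCl replicate 1 alone stands for the control and is assumed to vary like the inhibitor libraries. None of the 10 genes was among them. Socs3 rests on 33 to 103 counts per library in the first table, and 6 ligand genes were too low to test.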

Other observations

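Clcf1, a ligand gene singled out after its values were seen, was at 6.09 CPM in NaCl replicate 1 and at 1.84 to 2.52 CPM in the 3 other libraries of the second table.

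The summed level of the 24 target genes was 3159 and 2386 CPM in PTS + RS and 951 and 947 CPM in RS. Gfap alone held 2058 and 1452 CPM of this in PTS + RS and 372 and 354 CPM in RS. In the second table, made separately and from PTS + RS mice throughout, the summed level was 1045 and 1529 CPM with the HDAC3 inhibitor and 998 and 1565 CPM with NaCl. There Gfap held 439 and 688 CPM with the inhibitor and 290 and 622 CPM with NaCl. Within that table the amygdala-labelled libraries were the higher ones in both groups. The cortex-labelled NaCl library thus had Gfap below both RS libraries of the first table. C3 was at 0.512 CPM there and microglia markers summed to 572 CPM, against 15.8 and 1532 CPM or more in PTS + RS. In the amygdala-labelled NaCl library C3 was at 60.8 CPM, above both PTS + RS libraries. The reason was not tested, so the second comparison is not read as acting on the rise seen in the first.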
